A study of Mus musculus with 6 samples.

Results

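Chromatin accessibility was examined at the genes of 39 cytokine and growth factor receptors in mouse cells from fetal liver that the leukemia fusion oncogene MLL-ENL had transformed. Regions of the authors' table that compares WT with dKO cells were taken where they overlapped the body of a receptor gene extended by 25 kb on each side, and a region in several such windows went to the gene with the nearest start site. This yielded 38 of the 10016 listed regions, at 25 of the 39 genes. The measurement was ATAC-seq, in which the Tn5 transposase cuts open DNA, so that reads over a region count its accessibility. Both groups were cell lines transduced with MLL-ENL and kept in medium with interleukin 3 (IL-3) at 10 ng/ml, and 50000 sorted cells went into each library. WT cells are labelled wild type, and per the study they carried floxed alleles of Cebpa and Cebpb, the genes of C/EBPα and C/EBPβ, a pair of transcription factors of myeloid cells. The dKO cells were knockouts of both genes and expressed GFP from a vector, whereas the WT labels name no vector. Per the study, dKO lines were rare clones that survived Cre treatment, so genotype, vector, clone and survival cannot be told apart in this comparison. Each group had 2 libraries, and another group of 2 libraries, dKO cells with the rat C/EBPβ isoform LAP*, was not analysed here.

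Cytokine receptors sit on the cell surface and pass the signal of a soluble ligand into the cell. Most type I and type II receptors have no enzyme activity of their own and recruit JAK kinases, which phosphorylate STAT transcription factors, and many combine a subunit specific for the ligand with a shared chain such as the common beta chain, gp130 or the common gamma chain. Receptors of the IL-1 family signal through adaptors towards NF-κB instead, and Flt3 is itself a kinase. In myeloid progenitors these receptors set which growth and differentiation factors a cell can answer, and the C/EBP factors are known regulators of several of them, such as the receptors for G-CSF and IL-6.

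Values are the authors' means of normalised reads on the log2 scale, and a change is the dKO mean minus the WT mean. The table holds no value per library, so that no spread between replicates or error could be given, and no test was run here. The authors' own p-value and FDR columns were not used. Regions were listed by the authors at a corrected P-value cutoff of 0.05, and a receptor gene without a listed region may carry open regions that did not pass it. In a bulk sample, fewer cells with an open site and less opening per cell cannot be told apart. The labels give an average depth of 25000000 reads per sample, but the table gives no depth per library, and the labels' cell type could not be checked against markers, since only changed regions are listed. The dKO label was checked at the deleted genes, where the authors' means of the 3 listed regions ranged from 7.38 to 9.99 in WT and from -0.15 to 3.37 in dKO.

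Most listed regions at receptor genes were more open in dKO cells, and those that were less open included regions at the start sites of Il10ra and Il1r1 and just before that of Il2ra. Accessibility was higher in dKO at 27 of the 38 regions (71.1%) and lower at 11, beside 60.3% higher among all listed regions. The median change was 1.29 over the higher and -1.73 over the lower receptor regions, beside 1.58 and -1.85 over all listed regions of the same direction. Of the receptor regions, 31 (81.6%) differed at least 2-fold, beside 85.5% of all listed regions. Among the 25 genes, 15 had higher regions only, 7 had lower regions only, and 3 (Csf3r, Il1r1 and Il1r2) had both. Ifnar2 is among those 7 by the assignment, since a higher region inside it went to Il10rb. Subtracting the median change of all listed regions, 0.98, turned 7 of the 27 higher regions to lower, namely the smaller changes at Csf2rb2, Il6ra, Lifr, Il1rap, Il18rap, Il17ra and Ifngr2, and left 20 of 38 higher (52.6%). A listed region lay in the window of 64.1% of the receptor genes, beside 34.9% of 21938 protein-coding genes and 37% of the 6368 coding genes whose length lay between the quartiles of the receptor genes. The receptor genes were chosen with earlier results of these data known, so nothing is read from that difference.

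**Figure D1:**
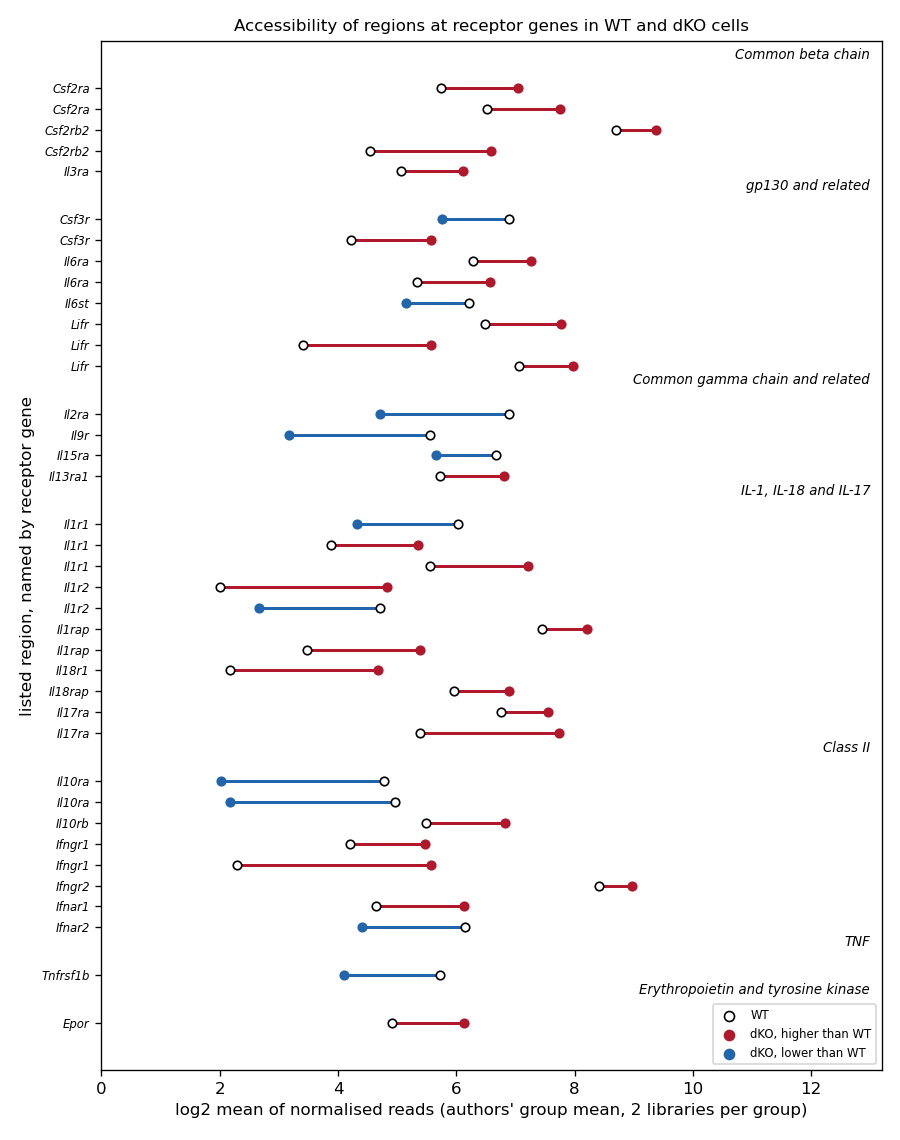
Log2 mean of normalised reads (x axis) at the 38 listed regions, 1 line per region named by its receptor gene and grouped by receptor family. Open circles are the authors' WT means and filled circles their dKO means (2 libraries each, no error available), red where dKO is higher and blue where it is lower; all 5 regions of the common beta chain group are red (1 of them turns lower after centring on the median of all regions), while both Il10ra regions are blue.

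The sequences of 11 regions are shown because they carry the largest changes of each kind. Each is the central 200 bases of a region on mm10, plus strand. C/EBP was searched as TTGCNNAA or TTACNNAA, AP-1 as TGAGTCA or TGACTCA, PU.1 as GAGGAAGT, RUNX as AACCACA and STAT as TTCNNNGAA, on both strands; a match is a description of the letters, not a bound site. The first set holds the 4 regions with a C/EBP match that were lowest in dKO relative to WT, with the C/EBP match in capitals. They are chr2:11641512-11641711 upstream of Il2ra, chr1:40132908-40133107 downstream of Il1r2, chr1:40224881-40225080 at the start of Il1r1 and chr4:145219355-145219554 in an intron of Tnfrsf1b, which holds 2 matches.
Il2ra: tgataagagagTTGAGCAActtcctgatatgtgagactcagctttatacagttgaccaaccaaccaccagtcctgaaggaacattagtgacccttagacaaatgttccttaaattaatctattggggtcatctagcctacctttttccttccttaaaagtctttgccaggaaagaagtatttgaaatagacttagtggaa
Il1r2: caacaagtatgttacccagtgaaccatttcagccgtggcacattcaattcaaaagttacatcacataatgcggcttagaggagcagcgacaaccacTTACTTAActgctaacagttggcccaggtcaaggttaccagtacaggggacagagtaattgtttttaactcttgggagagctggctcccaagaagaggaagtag
Il1r1: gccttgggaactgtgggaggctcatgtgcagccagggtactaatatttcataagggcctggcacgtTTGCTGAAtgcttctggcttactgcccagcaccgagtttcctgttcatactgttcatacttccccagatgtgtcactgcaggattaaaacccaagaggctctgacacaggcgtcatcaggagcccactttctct
Tnfrsf1b: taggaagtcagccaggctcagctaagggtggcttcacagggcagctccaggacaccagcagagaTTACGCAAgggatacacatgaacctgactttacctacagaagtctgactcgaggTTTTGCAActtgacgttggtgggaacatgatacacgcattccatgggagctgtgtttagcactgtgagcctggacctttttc

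The second set holds the 4 regions with an AP-1 match that were highest in dKO relative to WT, with the AP-1 match in capitals. They are chr15:78267949-78268148 downstream of Csf2rb2, chr1:40295012-40295211 over a coding exon of Il1r1, chr16:91475892-91476091 upstream of Ifnar1 and chr16:91398202-91398401 upstream of Il10rb. The Il1r1 and Il10rb windows hold 2 AP-1 matches each. The Ifnar1 window also holds the C/EBP match TTGCTGAA, left in lower case here. Its letters are those of the C/EBP match printed for the start of Il1r1.
Csf2rb2: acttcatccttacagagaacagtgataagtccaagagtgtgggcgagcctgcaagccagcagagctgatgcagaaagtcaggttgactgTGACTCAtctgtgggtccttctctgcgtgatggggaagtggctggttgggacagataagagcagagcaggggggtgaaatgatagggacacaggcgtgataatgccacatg
Il1r1: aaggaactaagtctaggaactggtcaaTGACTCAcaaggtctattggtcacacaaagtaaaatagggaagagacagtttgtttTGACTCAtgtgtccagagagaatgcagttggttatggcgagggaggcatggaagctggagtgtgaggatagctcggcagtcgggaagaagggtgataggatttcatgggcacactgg
Ifnar1: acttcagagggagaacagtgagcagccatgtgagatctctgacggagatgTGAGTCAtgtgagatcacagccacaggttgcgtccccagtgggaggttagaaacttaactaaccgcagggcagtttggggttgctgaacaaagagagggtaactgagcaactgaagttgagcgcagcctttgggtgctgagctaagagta
Il10rb: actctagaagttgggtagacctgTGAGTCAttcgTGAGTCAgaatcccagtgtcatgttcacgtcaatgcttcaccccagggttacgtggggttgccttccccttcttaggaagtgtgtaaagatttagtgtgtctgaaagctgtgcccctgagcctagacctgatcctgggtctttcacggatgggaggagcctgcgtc

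The third set holds the regions within 1 kb of an annotated start site of their own receptor gene with the largest changes, apart from that of Il2ra above. They are chr9:45269096-45269295 at the start of Il10ra, chr9:45268058-45268257 in the first part of the same gene and chr16:91387026-91387225 in Ifnar2. Capitals mark a STAT match in the second Il10ra window and a RUNX match in the Ifnar2 window, and the first holds no match of the 5 motifs.
Il10ra start: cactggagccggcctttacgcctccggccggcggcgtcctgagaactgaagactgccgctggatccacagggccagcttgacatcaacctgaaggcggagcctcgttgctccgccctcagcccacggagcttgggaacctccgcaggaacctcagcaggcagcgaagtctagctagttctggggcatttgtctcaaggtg
Il10ra inside: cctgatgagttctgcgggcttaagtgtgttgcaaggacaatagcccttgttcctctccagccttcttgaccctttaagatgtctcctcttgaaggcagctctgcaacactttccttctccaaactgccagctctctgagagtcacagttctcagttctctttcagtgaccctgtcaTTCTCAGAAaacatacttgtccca
Ifnar2: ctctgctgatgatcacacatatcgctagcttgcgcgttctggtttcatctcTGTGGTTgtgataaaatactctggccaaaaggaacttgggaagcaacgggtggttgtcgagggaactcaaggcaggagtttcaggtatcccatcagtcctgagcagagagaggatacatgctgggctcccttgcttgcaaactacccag

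The common beta chain group comprises the receptors for GM-CSF, IL-3 and IL-5, and IL-3 is the cytokine on which these lines were grown. Its 5 listed regions were all higher in dKO, beside 60.3% of all listed regions, with a median change of 1.23. Of these 5, 4 were still higher after centring on the median of all regions. They belonged to Csf2ra, Csf2rb2 and Il3ra, while Csf2rb, the common beta chain itself, and Il5ra had none. Csf2ra encodes the ligand-binding chain for GM-CSF. Its region over an exon (chr19:61223790-61224025) had an authors' mean of 5.75 in WT and 7.04 in dKO, a 2.45-fold higher level in dKO. A second one, 16108 bp upstream of the gene (chr19:61244537-61245175), went from 6.52 to 7.75. It was nearer to a start site of CR555305.1, at 10792 bp. Il3ra, the IL-3 binding chain, held an intronic region (chr14:14351640-14351873) with means of 5.06 and 6.12, a change of 1.06. All 3 regions at these alpha chain genes thus lay between 2-fold and 2.5-fold higher in dKO.

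Csf2rb2 is the mouse paralog of Csf2rb and encodes a beta chain that serves IL-3 alone. Both of its regions lay beyond its 3′ end and closer to the start site of Ncf4, which encodes a subunit of the phagocyte NADPH oxidase. The nearer region (chr15:78267859-78268238), printed above with its AP-1 match, went from 4.55 in WT to 6.59 in dKO, a change of 2.04. The farther one (chr15:78257525-78258649) overlapped Ncf4 and was the most open receptor region in the table, with 8.71 in WT and 9.38 in dKO, a change of 0.67. Csf2rb and Csf2rb2 are near copies, and how the authors treated reads that match both is not given in the sources used here.

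The group of gp130 and related receptors had 6 higher and 2 lower regions, and 4 of 8 were higher after centring. They lay at Csf3r, Il6ra, Il6st and Lifr, whereas Osmr, Il27ra, Il12rb1 and Il12rb2 had no listed region. Csf3r, the receptor for G-CSF and a driver of neutrophil production, changed in both directions. Its region 6361 bp upstream (chr4:126017658-126018189) went from 6.90 to 5.76, a change of -1.14, and its region over a coding exon (chr4:126035251-126035758) from 4.22 to 5.58, a change of 1.36. Both windows held a C/EBP match. For Il6ra, the IL-6 binding chain, the intronic region 1501 bp from a start site (chr3:89911232-89911661) went from 5.33 to 6.57, a change of 1.24. A start site of Gm42809 was slightly nearer to that region, at 1255 bp. Another one 2515 bp beyond the 3′ end of Il6ra (chr3:89861106-89861544) had 6.29 and 7.26, and its nearest start site was that of She.

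Il6st encodes gp130, the chain shared by receptors of the IL-6 family. The region assigned to it (chr13:112529834-112530309) had 6.22 in WT and 5.15 in dKO, a change of -1.07, but lay within Il31ra and 2035 bp from a start site of that gene. Lifr, which pairs with gp130 for leukemia inhibitory factor, had 3 higher regions. The intronic one (chr15:7113949-7114287) went from 3.41 to 5.58 and was 4.5-fold higher in dKO. The other ones were 5096 bp upstream (chr15:7084962-7085518; 6.48 and 7.77) and within the neighbouring gene Egflam (chr15:7216829-7217429; 7.06 and 7.98).

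Among the common gamma chain and related receptors, 3 of 4 listed regions were lower in dKO, also after centring. The group had the fewest regions for its size, since 6 of its 10 genes, Il2rb, Il2rg, Il4ra, Il7r, Il21r and Crlf2, had none. Il2ra, the alpha chain (CD25) of the receptor for IL-2, had the largest change within 1 kb of a start site of its own receptor gene, after the Il10ra regions. Its region 910 bp upstream of the start site (chr2:11641325-11641897) went from 6.89 in WT to 4.71 in dKO, a 4.53-fold lower level. Its printed sequence holds the C/EBP match TTGAGCAA. The neighbouring gene Il15ra, the IL-15 binding chain, had an intronic region (chr2:11710169-11710574) with 6.68 and 5.66, a change of -1.02, and matches to C/EBP and STAT. The region nearest to Il9r, the IL-9 receptor, was 5.17-fold lower, with 5.55 and 3.18 (chr11:32210997-32211358), but it overlapped a start site of Rhbdf1. Only Il13ra1, a receptor chain for IL-13, had a higher region, in an intron (chrX:36129380-36130064; 5.72 and 6.81, a change of 1.09).

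All 6 genes of the IL-1, IL-18 and IL-17 receptor group had listed regions, 9 higher and 2 lower, with 6 of 11 higher after centring. Il1r2, Il1r1, Il18r1 and Il18rap lie in a cluster on chromosome 1 (40074079 to 40551705) that held 7 of them, 5 higher and 2 lower (4 of 7 higher after centring). Within Il1r1, the signalling receptor for IL-1, the listed region at the start site and the 2 listed regions inside the gene went opposite ways. The region over its start site (chr1:40224807-40225153) had 6.03 in WT and 4.32 in dKO and was 3.27-fold lower. Far into the gene, an intronic region (chr1:40290506-40290825) went from 3.89 to 5.36 and a region over a coding exon (chr1:40294764-40295458) from 5.56 to 7.22, a change of 1.66. The C/EBP match printed for Il1r1 was in the region at the start site and the paired AP-1 matches were in the region over the coding exon.

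Il1r2 encodes the decoy receptor for IL-1, which binds the ligand without signalling. Its region 9222 bp upstream (chr1:40064532-40064857) went from 2.00 to 4.83, a change of 2.83, and the WT mean corresponded to 4.0 normalised reads. Downstream of the gene (chr1:40132887-40133128) the authors' means were 4.71 and 2.67, a change of -2.04, with matches to C/EBP and PU.1. A start site of Gm37347 was nearer to that region (44376 bp) than one of Il1r2 (46902 bp). Il18r1 and Il18rap encode the binding and the accessory chain for IL-18. The region assigned to Il18r1 (chr1:40444780-40445076) was 5.7-fold higher in dKO, with 2.17 and 4.68, and lay within Il1rl1, the receptor for IL-33. A region over the start site of Il18rap (chr1:40515134-40515630) went from 5.96 to 6.90, a change of 0.94 that turned lower after centring.

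Il1rap is the accessory chain shared by IL-1 family receptors. It had an intronic region (chr16:26626012-26626583) with 7.45 in WT and 8.21 in dKO and another one 868 bp beyond its 3′ end (chr16:26730985-26731290) with 3.47 and 5.38, a change of 1.91. For Il17ra, a receptor chain common to several IL-17 cytokines, both regions were upstream and only 223 bp apart. They nevertheless differed in size of change, since the one at chr6:120453092-120453605 went from 5.38 to 7.74 (5.13-fold higher) and the one at chr6:120452351-120452868 from 6.75 to 7.55 (1.74-fold higher). At Il17ra, the region with fewer reads in WT was thus the more open one in dKO, although no error is attached to either value.

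The class II receptors bind IL-10 and the interferons, and all 6 genes had listed regions, 5 higher and 3 lower (4 of 8 higher after centring). Il10ra, the ligand-binding chain for the anti-inflammatory cytokine IL-10, had the largest decreases among the listed receptor regions. The region over its start site (chr9:45269055-45269335) had 4.96 in WT and 2.17 in dKO and was 6.92-fold lower. A further one 740 bp away in an intron (chr9:45268000-45268314) had 4.77 and 2.03 and was 6.68-fold lower. In dKO these levels corresponded to 4.5 and 4.08 normalised reads. Il10rb, the partner chain of Il10ra that other class II cytokines share, had a change in the opposite direction, with 5.49 and 6.83 at a region 7604 bp upstream of its start (chr16:91398043-91398560), inside Ifnar2. The nearest start site to that region was of Gm21970, at 6322 bp.

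The largest increase among them was at Ifngr1, the binding chain for interferon gamma. Its region 13032 bp upstream (chr10:19578419-19578917) went from 2.30 to 5.58, a change of 3.28 or 9.71-fold, and 6.76% of all higher regions in the table had a larger one. In WT this was a level of 4.92 normalised reads. A second upstream region of Ifngr1 (chr10:19570110-19570577) had 4.20 and 5.48, a change of 1.28. By contrast, Ifngr2, the signalling partner of Ifngr1, had the smallest change of all 38 regions. Its wide region over the start site (chr16:91546075-91547529) was strongly open in both groups, with 8.41 and 8.98, and the change of 0.57 turned lower after centring.

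Ifnar1 and Ifnar2 form the receptor for type I interferons, and the regions assigned to them went opposite ways. The region of Ifnar1 lay 9043 bp upstream (chr16:91475787-91476195) and went from 4.65 to 6.13, a change of 1.48. That of Ifnar2 (chr16:91386849-91387401) went from 6.14 to 4.41, a change of -1.73. It lay 388 bp from the start of a transcript that begins inside the gene, and 14066 bp from the 5′ end of the gene. The higher region counted for Il10rb (change of 1.34) also lies inside Ifnar2. With windows cut to gene bodies that region goes to Ifnar2, whose higher minus lower number is then 0. The contrast between Ifnar1 and Ifnar2 thus depends on the assignment. Ifnar2, Il10rb, Ifnar1 and Ifngr2 are neighbours on chromosome 16 (91372783 to 91565623), where 3 of 4 regions were higher, or 2 of 4 after centring.

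Of the remaining receptors, Tnfrsf1b and Epor had 1 region each and Tnfrsf1a and Flt3 had none. Tnfrsf1b, the second TNF receptor, held an intronic region (chr4:145219296-145219613) that was 3.1-fold lower in dKO, with 5.73 and 4.10, and that carried the C/EBP matches TTACGCAA and TTTTGCAA. A start site of Vps13d was nearer to it (24291 bp) than one of Tnfrsf1b (27257 bp). Epor, the erythropoietin receptor, was assigned a region 8216 bp beyond its 3′ end (chr9:21950378-21950681) with 4.92 and 6.13, a change of 1.21. That region was nearer to a start site of Swsap1 (5074 bp) than to one of Epor (11883 bp).

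**Figure D2:**
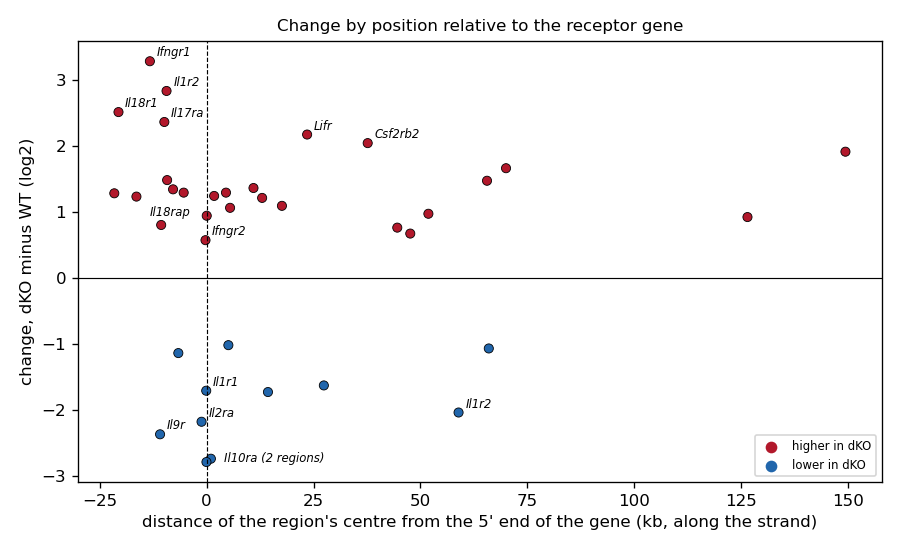
Change from WT to dKO (y axis, log2) against the distance of the region's centre from the 5′ end of the receptor gene along its strand (x axis, kb), 1 point per region, red where higher and blue where lower in dKO. The regions next to the 5′ ends of Il10ra, Il1r1 and Il2ra lie below 0, while those of Il18rap and Ifngr2 lie at 0.94 and 0.57 (both lower after centring).

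Few receptor regions were close to a start site, and more of those were lower than higher in dKO. Within 1 kb of an annotated start site of their own gene lay 5 of the 11 lower regions, at Il2ra, Il1r1, Il10ra (2 regions) and Ifnar2, and 2 of the 27 higher regions, at Il18rap and Ifngr2. Counting the start sites of all genes gave 6 of 11 and 2 of 27, beside 20.6% of all lower and 18.1% of all higher listed regions. No such share was computed for own start sites. The 2 Il10ra regions were only 740 bp apart, and that of Ifnar2 was 14066 bp from the 5′ end of its gene. The higher regions were upstream in 10 cases, downstream in 6 and in introns in 6. Most of them lay beyond 1 kb of a start site, as did most higher regions of the whole table. Of the 38 regions, 17 overlapped their receptor gene and 21 lay outside it, and 13 were nearer to a start site of another gene. The farthest region inside the 25 kb limit was that of Csf2rb2 at 23858 bp from the gene. The nearest outside it was 25376 bp from Il2ra (chr2:11617017-11617431), where the WT mean of 0.77 was below 3 reads per library and the dKO mean was 5.14, at least 13.1-fold higher against that floor.

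Levels in WT are given as a description, since the split by direction uses them. Higher regions spanned WT means from 2.00 to 8.71 with a median of 5.38, beside 4.52 for all higher regions in the table. Lower regions spanned 4.71 to 6.90 with a median of 6.03, beside 5.93 for all lower regions. No receptor region was at or below the floor of 3 reads per library (a log2 mean of 1.43) in either group, against 437 of all listed regions. In 5 regions, at Il1r2, Il18r1, Il10ra (2 regions) and Ifngr1, the lower group had fewer than 5 normalised reads, so that counting error weighs most on these folds. The median GC content was 51.5% in higher and 51% in lower receptor regions.

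**Figure D3:**
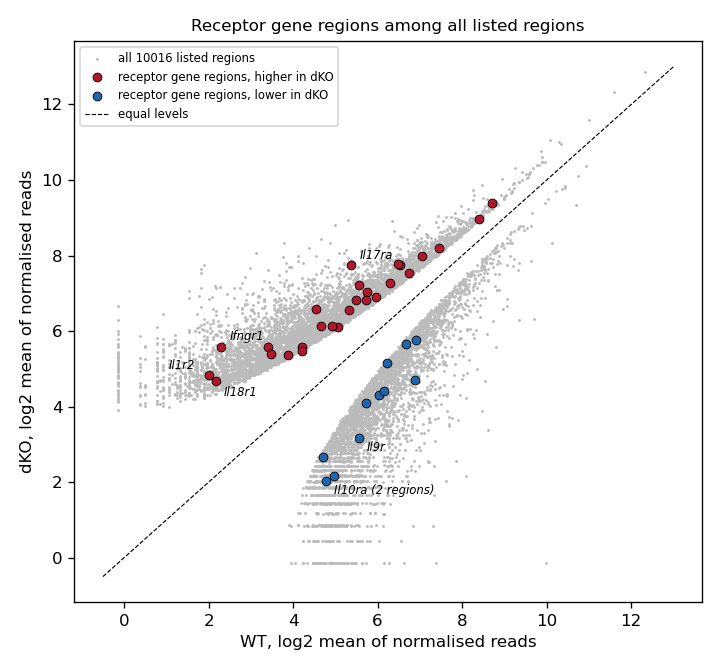
Log2 mean of normalised reads in dKO (y axis) against WT (x axis) for all 10016 listed regions (grey) and the 38 regions at receptor genes (red higher, blue lower in dKO); the dashed line marks equal levels. The empty band along it holds the regions that the authors did not list, and the receptor regions with the most extreme changes, Ifngr1 at 3.28 and Il10ra at -2.79, lie inside the grey clouds.

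Next, motif content was described in the central 200 bases. C/EBP matches occurred in 6 of the 11 lower regions (54.5%, beside 40.8% of all lower regions) and in 3 of the 27 higher regions (11.1%, beside 20.1%). The share in higher regions depended on the stretch searched, with 22.2% in the central 400 bases (beside 33.3%) and 33.3% over whole regions (beside 35.3%), while that in lower regions was 81.8% in both (beside 52.9% and 54.3%). The 6 lower regions with a match in the central 200 bases were at Csf3r, Il2ra, Il15ra, Il1r1, Il1r2 and Tnfrsf1b, and the Il10ra regions had none in this window. The 3 higher regions with a C/EBP match were at Csf3r, Ifngr2 and Ifnar1, the last of which also held an AP-1 match. AP-1 matches occurred in 8 of the 27 higher regions (29.6%, beside 26.7%) and in 0 of the 11 lower ones (beside 4.7%). PU.1 matches occurred in 5 of the 27 higher regions (18.5%, beside 13.1%) and in 1 of the 11 lower ones (9.1%, beside 3.3%). RUNX matches occurred in 4 higher regions (14.8%, beside 13.8%) and in 2 lower ones (18.2%, beside 9.0%). STAT matches were in 0 of 27 higher regions (beside 5.2%) and in 2 of 11 lower ones, at Il10ra and Il15ra (beside 9.5%). Over all 10016 regions, 28.4% held C/EBP, 17.9% AP-1, 9.2% PU.1, 11.9% RUNX and 6.9% STAT. Neighbouring regions share their surroundings and the numbers are small, so these shares were not tested.

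**Figure D4:**
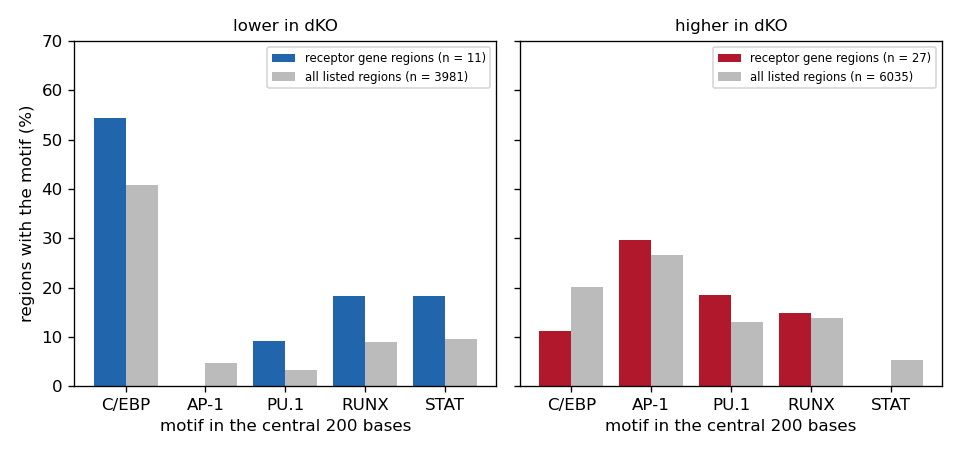
Percentage of regions with each motif in the central 200 bases (y axis), for regions lower (left) and higher (right) in dKO; coloured bars are receptor gene regions and grey bars all listed regions of the same direction. C/EBP is the tallest coloured bar on the left (54.5%) and AP-1 on the right (29.6%), where the C/EBP bar of 11.1% becomes 33.3% when whole regions are searched.

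Genes around the receptors were counted by the same window, and their counts stand beside the same 34.9% of coding genes with a listed region and 60.3% of listed regions higher in dKO. Of 33 cytokine ligand genes, 15 had 18 listed regions, of which 16 were higher in dKO (12 of 18 after centring). The largest change (2.58) was at a region assigned to Lif, the gene of leukemia inhibitory factor. It lay outside that gene, 29639 bp from its start site. Whether regions of these lists lay nearer to other genes was not examined. The lower regions were at Epo, which had a lower and a higher region, and Flt3l, the ligand of Flt3, whose start site region (chr7:45134448-45134986) went from 8.27 to 7.22. Of 15 JAK, STAT and SOCS family genes, 8 had 16 regions, 9 higher and 7 lower (6 of 16 higher after centring). Jak2, the kinase used by the IL-3 receptor, had 2 higher upstream regions (changes of 1.65 and 0.83). Stat2, which transmits type I interferon signals, had 3 higher regions, including the largest change of this list (4.84, from 2.07 in WT to 6.91 in dKO). That region lay outside the gene, 13883 bp from a start site of Stat2. Among the feedback inhibitors, Cish (-2.16), Socs1 (-0.90) and Socs2 (-1.82) had a single lower region each, outside the gene. Socs3 had a higher region (1.06) and 2 lower ones (-1.0 and -0.97), also outside the gene. Of 22 further receptors, 8 had 14 regions, 8 higher and 6 lower (7 of 14 higher after centring), and 2 of these regions were also counted above for Il6st and Il18r1. The share of these receptors with a region, and the shares of higher regions in this list and in that of the JAK, STAT and SOCS genes, were near the shares over the whole table. The lists were chosen with earlier results known, so nothing is read from the other shares either. The largest higher change was at Il1rl1, with 3 higher regions (3.76, 2.51 and 1.71), and the largest lower one at Lepr, the leptin receptor, with 2 lower regions (-3.03 and -2.21). Csf1r, the receptor for M-CSF, had 3 higher regions (1.08, 1.98 and 2.55). Per the study, Csf1r expression was reduced in dKO cells, so these gains are not read as higher expression. Kit, the receptor for stem cell factor, had a higher region with a dKO mean of 4.52 and a WT mean of 1.26, below the floor of 3 reads per library.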

How the data were processed

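The labels list ATAC-seq libraries of 3 groups with 2 replicates each (WT, dKO and dKO with LAP*), and the WT and dKO groups were analysed. Per the study's methods and the submitters' processing notes, the authors preprocessed reads with PiGx, aligned them to mm10 with Bowtie2, called peaks with MACS2 and compared groups with DiffBind 2.14.0. Duplicate handling, the Tn5 offset and peak merging were not given in the sources used here; retained duplicates would inflate strongly amplified regions. The authors' deposited values are log2 means of normalised reads per group. Their fold change, p-value and FDR columns hold their own comparison and were not used. Both deposited tables had the same content, so 1 was used and no values for LAP* cells were analysed.

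Changes were computed as dKO minus WT mean. The lowest listed value (-0.15) was read as 1 read per library, so that 3 reads correspond to 1.43. Gene bodies and transcript starts came from GENCODE M21, and sequences from GRCm38.p6, whose chromosomes are those of mm10. Distances run from the nearer edge of a region to the nearest annotated transcript start, unless stated otherwise. Scripts used Python 3.11.15, pandas 2.3.3 and pysam 0.24.0 and were tested on simulated data. Members and lists were chosen with earlier results of these data known. For each gene with a region, its count by direction and its largest change are named, with all regions within 1 kb of a start site of the gene itself and all regions of genes with 3; sequences follow the 3 sets described. No test was run, since the table has no value per library.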

Additional observations from a re-analysis of the deposited data

How the results depend on the processing

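No paired analysis was possible because only the authors' group means are tabulated, without single libraries, even though the labels number the replicates alike in WT and dKO. Leaving out replicates and trying other normalizations, tests or pseudocounts were not run on that account. Of 70 values recomputed over the alternatives, 58 stayed within a wide tolerance and 12 moved beyond it. For counts and medians it was a fixed ratio, and for shares an interval that takes regions as independent. It kept a drop from 27 to 18 higher regions when the receptor had to hold the nearest start site of any gene. It also kept a C/EBP share of higher regions that went from 11.1% to 22.2% in the central 400 bases. Restricting windows to the gene body left 18 regions at 14 genes, 12 higher and 6 lower, since fewer bases were searched; 1 of the 18, assigned to Il10rb when windows are wider, is inside Ifnar2. Requiring that the receptor hold the nearest start site of any gene left 25 regions, 7 of them lower. Centring on the median change of all listed regions left 52.6% higher and 18 lower, with a median change of 0.10. The share of regions higher in dKO otherwise ranged from 64.5% to 75.8%. C/EBP matches in lower regions increased to 81.8% over the whole region and to 81.8% in the central 400 bases (all lower regions: 54.3% and 52.9%), and in higher regions to 33.3% over the whole region (all higher regions: 35.3%) and 22.2% in the central 400 bases (33.3%), since more bases were searched. The number of higher minus lower regions was followed for 25 genes over 9 alternatives. In 29 of these combinations no region was left. Of the remaining 196, 167 kept that number, 26 differed from it and 3 reversed. Il2ra went from -1 to 1 with 50 kb windows, and Il18rap and Ifngr2 from 1 to -1 after centring. Windows of 50 kb also added regions at Csf2rb, Il2rb, Il4ra and Il7r. The table does not give depth, so no counting interval could be attached to any value.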
